A study of Homo sapiens with 18 samples.

Results

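The regions described here are 10 kb windows (bins) of chromosomes 1 to 22 that carried H3K27me3 and no H3K9me3 in U937 cells with a control guide. U937 is an established human acute myeloid leukaemia line. A bin counted as marked in a library when at least 50% of it lay inside the domains deposited for that library. The bins of interest were marked in both H3K27me3 libraries of control cells and in neither of their H3K9me3 libraries, which held for 32328 of 287294 bins (11.3% of the autosomes, 323.28 Mb). They are called H3K27me3-alone bins below. Both marks were mapped by ChIP-seq in DKO cells (knockout of SUV39H1 and SUV39H2), SKO cells (knockout of SUV39H1) and sgControl cells, with 2 libraries per mark and genotype. SETDB1 was mapped in 2 libraries of wild-type U937 cells. All 3 genotypes derive from U937, and the sources used here do not say whether a knockout line is a clone or a pool. The bins were chosen by measured values, the domain coverage of the 4 sgControl libraries, so sgControl values are fixed by the rule, and a knockout set against sgControl is a description with no test.

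H3K27me3 is set by the Polycomb repressive complex PRC2 and is known for covering silent developmental genes, either as broad domains or as short blocks around a gene start. H3K9me3 is the mark of constitutive heterochromatin, set by SUV39H1, SUV39H2 and SETDB1 and read by HP1 proteins. The marks are usually laid down by separate machinery on separate regions, although broad repressed regions can carry both. In myeloid cells, genes of other lineages are typical holders of H3K27me3. Of 42 myeloid identity genes, 28 held no domain of either mark in any of the 12 libraries and 1, the leukocyte receptor gene LILRB4, lay in H3K27me3-alone bins. Over all genes 10115 of 19126 held none, and 28 of the 39 genes of the HOX clusters did not either, so these lists give no check of the cell type, and no expression was measured.

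Reads inside H3K27me3 domains ran from 45.5 M in DKO library 2 to 67.6 M in SKO library 1 (M, mega), and those inside H3K9me3 domains from 16.1 M in DKO library 2 to 23.3 M in sgControl library 1. H3K27me3 domains covered 1124 to 1148 Mb in DKO, 1133 to 1142 Mb in SKO and 1022 to 1027 Mb in sgControl. H3K9me3 domains covered 767 to 772 Mb in DKO, 737 to 739 Mb in SKO and 997 to 1028 Mb in sgControl. A domain call depends on depth, and the deposited counts carry no spike-in factor, so the values below are positions of called domains and not amounts of a mark.

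Promoters of 6 genes stand for the courses that H3K27me3-alone bins took in the knockouts. Each sequence runs from 250 bases before to 50 bases after the gene start, 5′ to 3′ along the gene's strand, as RefSeq gives it on GRCh38.p14, with every CG dinucleotide in capitals because PRC2 is known to occupy CpG-rich promoters. HAND1, a heart and placenta regulator (chr5:154478178-154478477, minus strand), lay in a bin that lost H3K27me3 and took up no H3K9me3. FAM24B (chr10:122879592-122879891, minus strand) was the sole matched promoter in a bin that lost H3K27me3 and gained H3K9me3 in both knockouts. CLPSL1, a colipase-like gene (chr6:35780769-35781068, plus strand), lay in a bin that held both marks in both knockouts. KCNA5, a voltage-gated potassium channel gene (chr12:5043629-5043928, plus strand), lay in a bin that gained H3K9me3 beside H3K27me3 in DKO and not in SKO. SOX2, a stem cell and neural regulator (chr3:181711675-181711974, plus strand), and POSTN, a matrix protein gene (chr13:37598719-37599018, minus strand), lay in bins that kept H3K27me3 alone, and are shown as a CG-rich and a CG-poor promoter of the same course.
HAND1: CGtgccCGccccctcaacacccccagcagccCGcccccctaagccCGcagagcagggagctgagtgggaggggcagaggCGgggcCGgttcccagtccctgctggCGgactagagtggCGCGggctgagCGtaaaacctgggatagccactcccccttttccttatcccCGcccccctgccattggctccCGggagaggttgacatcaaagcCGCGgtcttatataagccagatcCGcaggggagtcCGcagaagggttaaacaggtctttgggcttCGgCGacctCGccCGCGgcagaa
FAM24B: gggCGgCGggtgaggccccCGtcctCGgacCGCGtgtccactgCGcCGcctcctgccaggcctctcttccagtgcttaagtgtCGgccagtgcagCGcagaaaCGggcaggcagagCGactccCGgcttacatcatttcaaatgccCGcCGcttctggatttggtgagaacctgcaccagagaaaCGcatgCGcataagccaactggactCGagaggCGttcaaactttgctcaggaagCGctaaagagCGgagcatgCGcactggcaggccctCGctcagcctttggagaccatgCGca
CLPSL1: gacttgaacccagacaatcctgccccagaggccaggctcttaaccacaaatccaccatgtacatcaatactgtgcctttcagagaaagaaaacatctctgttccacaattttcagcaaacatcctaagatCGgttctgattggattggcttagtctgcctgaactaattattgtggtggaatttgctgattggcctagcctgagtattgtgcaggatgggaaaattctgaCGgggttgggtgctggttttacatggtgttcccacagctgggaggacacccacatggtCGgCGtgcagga
KCNA5: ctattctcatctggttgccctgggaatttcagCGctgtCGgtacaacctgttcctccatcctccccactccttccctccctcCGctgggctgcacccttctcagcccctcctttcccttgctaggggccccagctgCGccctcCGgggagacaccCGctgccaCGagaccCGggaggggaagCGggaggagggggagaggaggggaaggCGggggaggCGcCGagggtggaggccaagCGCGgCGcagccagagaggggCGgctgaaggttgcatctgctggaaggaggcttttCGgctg
SOX2: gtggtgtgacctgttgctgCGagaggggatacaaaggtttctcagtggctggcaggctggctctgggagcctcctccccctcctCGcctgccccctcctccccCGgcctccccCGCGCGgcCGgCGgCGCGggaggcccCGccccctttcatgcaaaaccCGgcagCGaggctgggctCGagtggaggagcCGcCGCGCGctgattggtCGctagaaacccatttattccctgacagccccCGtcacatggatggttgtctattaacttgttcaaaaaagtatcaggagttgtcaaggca
POSTN: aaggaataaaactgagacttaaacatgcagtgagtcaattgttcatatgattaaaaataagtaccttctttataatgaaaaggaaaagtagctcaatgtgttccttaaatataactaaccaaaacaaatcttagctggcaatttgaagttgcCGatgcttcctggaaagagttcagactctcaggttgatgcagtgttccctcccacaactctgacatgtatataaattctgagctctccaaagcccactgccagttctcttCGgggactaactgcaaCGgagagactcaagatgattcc

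The HAND1 bin was inside H3K27me3 domains over 8% in both DKO and both SKO libraries, against 100% and 96% in sgControl, and H3K9me3 was 0% throughout. The FAM24B bin had H3K27me3 at 0% in the 4 knockout libraries, against 72% in both sgControl libraries, and H3K9me3 over 100% and 84% in DKO and 92% in both SKO libraries, against 0% in sgControl. The KCNA5 bin had H3K27me3 over 100% in all 6 libraries, and H3K9me3 over 100% in both DKO libraries, against 0% in SKO and in sgControl. The sequences held 21 CG dinucleotides in HAND1, 24 in FAM24B, 17 in KCNA5, 20 in SOX2, 4 in CLPSL1 and 3 in POSTN, against a median of 22 over 15101 matched promoters, of which 98.1% held at least 1.

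Most H3K27me3-alone bins kept H3K27me3 without SUV39H1 or both SUV39H enzymes. H3K27me3 marked 83.8% and 81.3% of them in DKO, 83.9% and 82.6% in SKO and, by the rule, 100% in sgControl. The DKO and SKO libraries overlapped, with means of 82.5% ± 1.74 in DKO and 83.2% ± 0.919 in SKO (SD, n = 2 each). The difference of -0.70 percentage points, with single differences from -2.58 to 1.18, did not exceed the spread between libraries (p = 0.667, exact two-sided permutation test, smallest possible p 0.333). Retention was lower than in the 51095 bins with both marks in sgControl, with 82.9% ± 1.20 of the H3K27me3-alone bins kept over the 4 knockout libraries, against 94.4% ± 0.449 of the bins with both marks (SD, n = 4). The difference of -11.5 points had the same sign in 4 of 4 knockout libraries (p = 0.125, exact two-sided sign-flip test, the smallest it can give).

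H3K9me3 arrived on a minority of the bins, and on more of them in DKO than in SKO. H3K9me3 marked 11.9% and 11.5% in DKO, 5.61% and 5.39% in SKO and, by the rule, 0% in sgControl. The DKO libraries stood above the SKO libraries without overlap, by 6.20 percentage points, with single differences from 5.91 to 6.50 (p = 0.333, exact two-sided permutation test, the smallest that 2 against 2 libraries allow). The same contrast ran the other way in the 129620 bins with neither mark in sgControl, at 6.41% ± 0.244 in DKO and 7.64% ± 0.171 in SKO (SD, n = 2 each), a difference of -1.23 points. In the bins with both marks in sgControl it was 66.1% ± 1.41 in DKO and 56.8% ± 0.451 in SKO, a difference of 9.39 points. The gap between H3K27me3-alone bins and bins with neither mark was thus 7.43 points higher in DKO than in SKO (p = 0.333, exact permutation test, the smallest possible). Averaged over the knockouts, H3K9me3 gain was 8.60% ± 3.58 in H3K27me3-alone bins and 7.02% ± 0.733 in bins with neither mark (SD, n = 4), higher in 2 of 4 libraries (p = 0.5, exact sign-flip test).

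**Figure D1:**
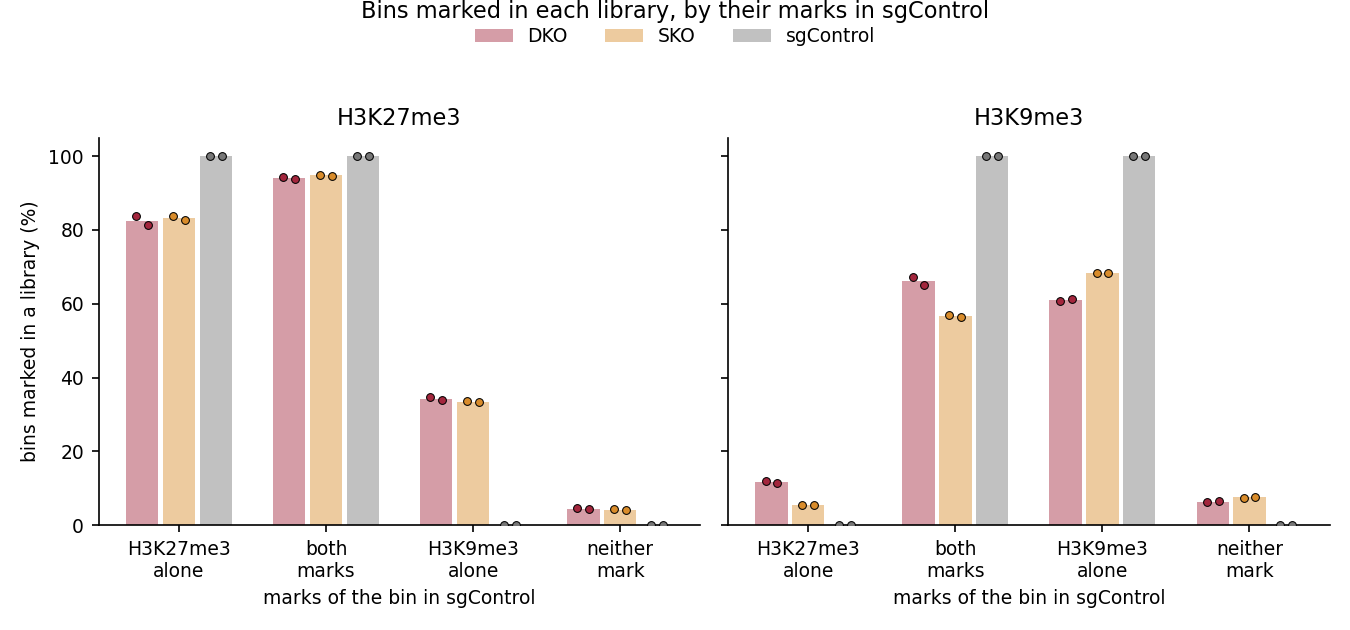
Percentage of bins marked by H3K27me3 (left panel) and H3K9me3 (right panel) in each library, for 4 classes of bins set by their marks in sgControl; bars are means of 2 libraries and points are the libraries. In the H3K27me3-alone class the H3K9me3 points of DKO lie at 11.9% and 11.5%, above 5.61% and 5.39% in SKO, while the H3K27me3 points of DKO and SKO overlap.

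Taking both marks at once, H3K27me3 alone was still the commonest state. In DKO 20018 bins (61.9%) had H3K27me3 in both libraries and H3K9me3 in neither, against 23144 (71.6%) in SKO. Both marks together were found on 2029 bins (6.28%) in DKO and 790 (2.44%) in SKO. Neither mark was found on 3660 bins (11.3%) in DKO and 3530 (10.9%) in SKO. H3K9me3 in place of H3K27me3 was the rarest of these states, with 116 bins (0.359%) in DKO and 122 (0.377%) in SKO. In the remaining bins the libraries of a mark differed. Over all bins, whatever their marks in sgControl, H3K27me3 alone made up 18.1% in DKO and 22.3% in SKO. Both marks made up 14.4% in DKO and 11.4% in SKO, and neither mark 46.8% in DKO and 44.5% in SKO. H3K9me3 alone made up 7.79% in DKO and 10.0% in SKO. With every list brought to the same covered length per mark, both marks were found on 9.91% in DKO and 5.46% in SKO, and neither mark on 18.6% in DKO and 18.5% in SKO, of the bins then chosen. Leaving out a knockout library or an sgControl library of H3K9me3, so that 1 library makes the call, raised the share with both marks to at most 10.997% in DKO and 4.95% in SKO. Over both knockouts together, 17797 bins (55.1%) kept H3K27me3 alone in every library, 2449 (7.58%) lost it with no H3K9me3, 495 (1.53%) kept it and gained H3K9me3, and 56 (0.173%) exchanged one mark for the other. A further 952 bins (2.94%) kept H3K27me3 and gained H3K9me3 in DKO but not SKO, and 94 (0.291%) did so in SKO but not DKO, 56 of these 94 on chromosome 7. Taken over both knockouts together, the same states in all bins made up 15.3% for H3K27me3 alone, 42.1% for neither mark, 9.70% for both marks and 6.76% for H3K9me3 alone. H3K27me3 with H3K9me3 in DKO but not SKO made up 1.89% of all bins, and the reverse 0.433%.

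**Figure D2:**
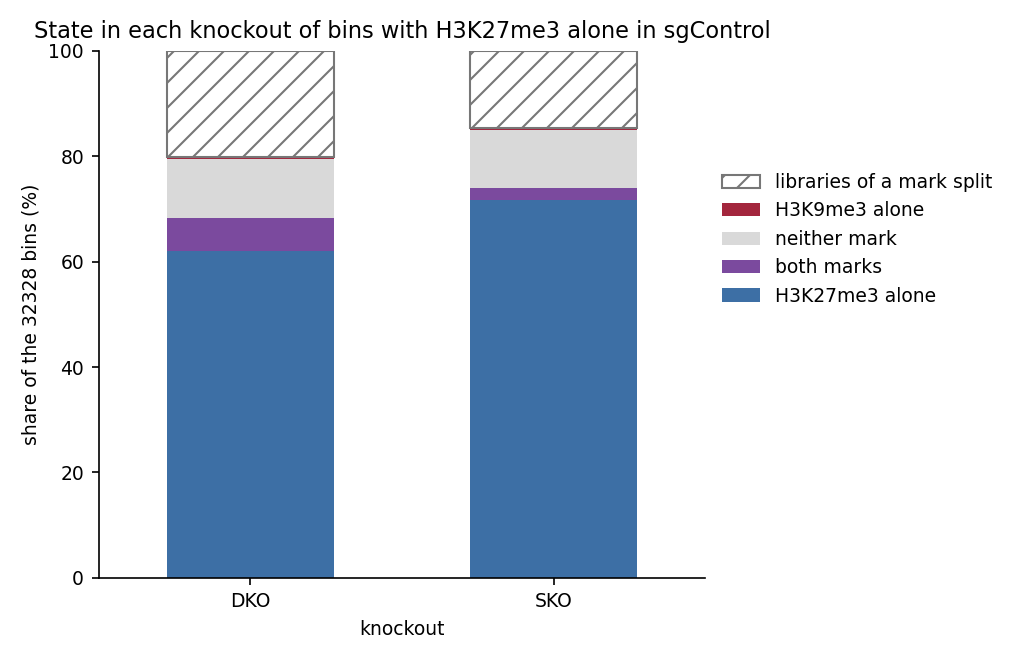
Share of the 32328 H3K27me3-alone bins in each state, for DKO and SKO; a bin has a state when both libraries of each mark gave the same call, and the hatched part holds bins whose libraries differed. Bins with both marks made up 6.28% in DKO and 2.44% in SKO, and the band with H3K9me3 alone is barely visible at 0.359% and 0.377%.

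Counted by calls that both libraries shared, H3K27me3 was lost from 3934 of the bins in DKO (12.2%) and 3821 in SKO (11.8%). Over all bins such losses made up 2.60% in DKO and 2.44% in SKO, a comparison the rule has shaped, since bins unmarked in sgControl cannot lose a mark. H3K9me3 was gained on 2191 bins (6.78%) in DKO, where 2.85% of all bins gained it, and on 959 bins (2.97%) in SKO, where 2.90% of all bins did. Bins marked by H3K9me3 in sgControl cannot gain it, and of the bins with neither mark in sgControl 4.57% gained it in DKO and 5.64% in SKO. The share of H3K27me3-alone bins was thus above that of unmarked bins in DKO and below it in SKO. Set directly against SKO, DKO had H3K9me3 gained on 1000 bins (3.09%, against 2.19% of all bins) and lost from 148 (0.458%, against 1.95% of all bins). In the bins with neither mark in sgControl, 0.471% gained H3K9me3 in DKO over SKO, and in those with both marks 5.54% did. H3K27me3 was gained on 409 bins in DKO over SKO (1.27%, against 0.753% of all bins) and lost from 485 (1.5%, against 0.764%), so the calls ran both ways in similar number. Where a knockout library was left out and 1 library made the call, the shares reached 7.07% for H3K9me3 gained, 1.29% for H3K9me3 lost, 3.93% for H3K27me3 gained and 4.89% for H3K27me3 lost.

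The H3K9me3 that appeared in DKO lay mainly on bins that still carried H3K27me3. Among the 24977 bins that kept H3K27me3 in DKO, 14.2% and 13.7% had H3K9me3, against 4.83% and 5.08% of the 3934 that lost it. In SKO the values were 5.96% and 5.74% among 25315 kept bins and 5.50% and 5.31% among 3821 lost bins. Kept bins had the higher share in each library of both knockouts, with the wider gap in DKO; whether the gap differed between knockouts was not tested.

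**Figure D3:**
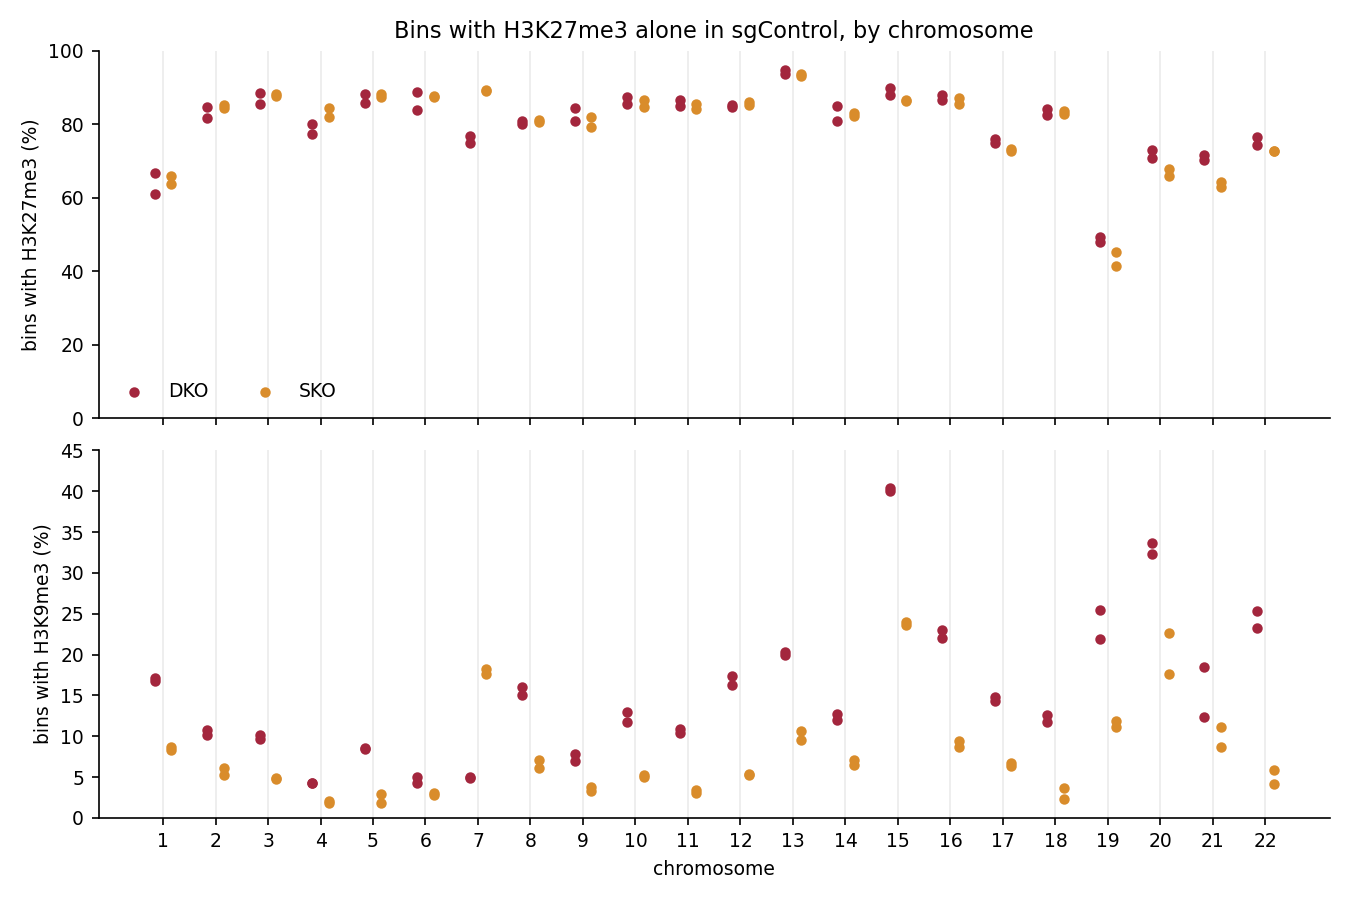
Percentage of H3K27me3-alone bins with H3K27me3 (top) and H3K9me3 (bottom) on each autosome; each point is 1 library, DKO left of SKO. The H3K9me3 points of DKO lie above those of SKO on 21 of 22 autosomes and below them on chromosome 7.

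H3K27me3-alone bins were spread unevenly. They made up 24.1% of chromosome 11, 21.6% of chromosome 14 and 21.4% of chromosome 4, but 1.74% of chromosome 21 and 2.81% of chromosome 8, where 40.2% of bins had both marks in sgControl. H3K9me3 was higher in DKO than in SKO, without overlap of libraries, on 21 of 22 autosomes. The highest shares were on chromosome 15, at 40.1% and 40.4% in DKO and 24.0% and 23.6% in SKO, over 292 bins. The lowest in DKO was on chromosome 4, at 4.31% and 4.24%, against 2.02% and 1.80% in SKO, over 4061 bins. In the bins with neither mark the DKO mean was above the SKO mean on 2 of 22 autosomes. H3K27me3 gave no such order, with DKO above SKO on 6 autosomes, below on 2 and overlapping on 14. Retention was lowest on gene-rich chromosome 19, at 49.3% and 47.8% in DKO and 45.1% and 41.5% in SKO, and highest on chromosome 13, at 94.8% and 93.6% in DKO and 93.6% and 93.2% in SKO.

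Chromosome 7 stood apart from the other autosomes. Its 1089 H3K27me3-alone bins had H3K9me3 over 5.05% and 4.87% in DKO and 18.2% and 17.6% in SKO, and H3K27me3 over 76.7% and 74.8% in DKO and 89.4% and 89.0% in SKO. Both marks were lower in DKO than in SKO there without overlap of libraries, with differences of -12.9 points for H3K9me3 and -13.5 points for H3K27me3. The input libraries were not analysed here, so the number of chromosome 7 reads in input was not compared between genotypes. The bins of chromosome 7 with neither mark followed for H3K9me3, with 3.99% in DKO and 12.6% in SKO. Of the 148 bins that lost H3K9me3 in DKO against SKO, 72 lay on chromosome 7. Without this chromosome the H3K9me3 share was 12.1% and 11.8% in DKO and 5.18% and 4.96% in SKO, and the H3K27me3 share was 84.0% and 81.5% in DKO and 83.7% and 82.4% in SKO.

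Both marks varied with position inside the control domain, H3K27me3 retention and H3K9me3 gain each being higher in wide domains and away from their rims. Bins in sgControl H3K27me3 domains under 50 kb kept H3K27me3 in 68.3% ± 2.67 of cases in DKO and 70.4% ± 1.60 in SKO, and those in domains of 1 Mb or wider in 95.6% ± 0.242 in DKO and 95.2% ± 0.533 in SKO (SD, n = 2). H3K9me3 over the same classes was 3.72% ± 0.0147 in DKO and 2.62% ± 0.228 in SKO for the narrow domains, and 36.4% ± 1.60 in DKO and 14.7% ± 0.0485 in SKO for the widest. The widest class held 1459 bins and the narrowest 9606. The same order held from the rim of an H3K27me3 block inwards. In the outermost bin H3K27me3 was kept in 63.9% ± 2.71 in DKO and 66.1% ± 1.64 in SKO, and at 11 bins or more from the rim in 94.4% ± 0.467 in DKO and 94.3% ± 0.149 in SKO. H3K9me3 marked 5.21% ± 0.380 of the outermost bins in DKO and 3.75% ± 0.401 in SKO, and 20.9% ± 0.836 of the innermost in DKO and 8.27% ± 0.163 in SKO. Uninterrupted runs of H3K27me3-alone bins gave another order for H3K9me3. It marked 18.6% ± 0.172 in DKO and 12.7% ± 0.172 in SKO of bins in runs of 1 bin. In runs of 20 bins or more it marked 12.2% ± 0.196 in DKO and 2.08% ± 0.261 in SKO, and in runs of 10 to 19 bins 9.07% ± 0.752 in DKO and 3.06% ± 0.0203 in SKO. Width, distance from the rim and run length were defined in sgControl libraries that also chose the bins, so these are descriptions over bins that share libraries.

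**Figure D4:**
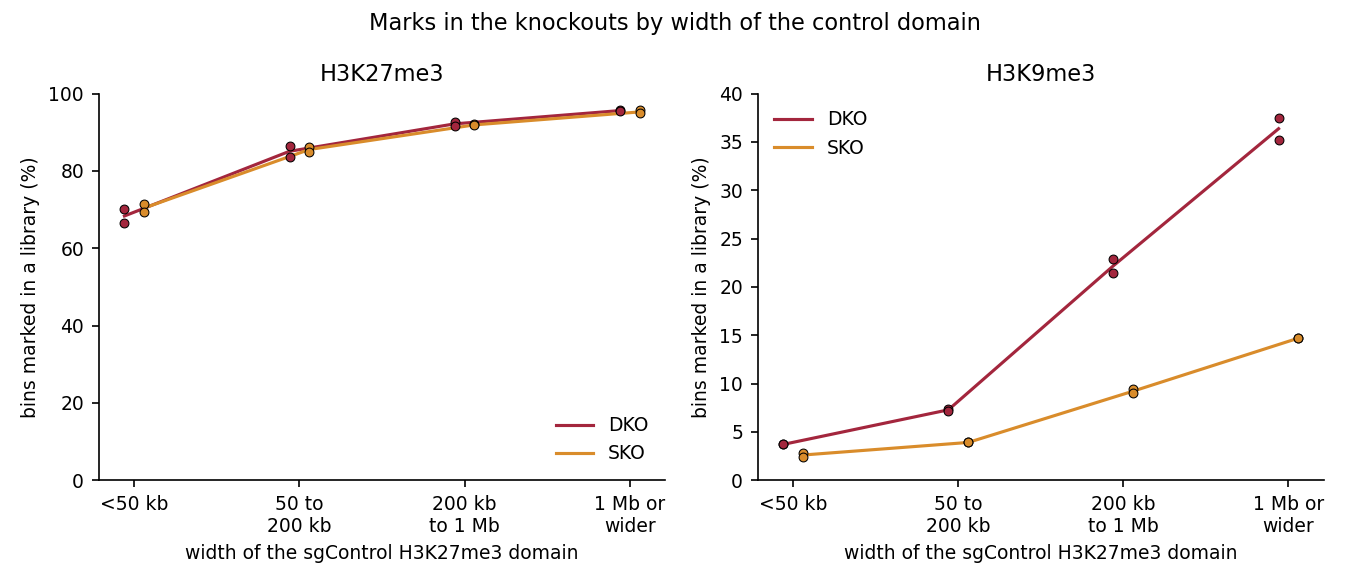
Percentage of H3K27me3-alone bins with H3K27me3 (left) and H3K9me3 (right) in the knockouts, by width of the sgControl H3K27me3 domain; lines join means of 2 libraries and points are the libraries. Retention of H3K27me3 reaches 95.6% in DKO and 95.2% in SKO in the widest domains, and H3K9me3 reaches 36.4% in DKO and 14.7% in SKO. The vertical scales of the panels differ.

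H3K9me3 on H3K27me3-alone bins was more frequent near H3K9me3 that was present in sgControl. Next to a bin with H3K9me3 in sgControl, 20.7% ± 0.0409 of H3K27me3-alone bins had H3K9me3 in DKO and 11.7% ± 0.106 in SKO (SD, n = 2, 8635 bins). At 21 bins or more away the shares were 3.54% ± 0.177 in DKO and 1.19% ± 0.123 in SKO (5183 bins). DKO exceeded SKO at all 6 distances in these bins, whereas in bins with neither mark the DKO mean was below the SKO mean at all 6, with 20.5% in DKO and 24.0% in SKO beside control H3K9me3. H3K9me3 domains over newly marked bins had median widths of 25.6 kb in DKO and 24.0 kb in SKO, and 90th percentiles of 76 kb in DKO and 101 kb in SKO. Of the newly marked bins, 68.5% in DKO and 74.2% in SKO belonged to a run of H3K9me3 bins that reached a bin marked in sgControl.

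Coverage near the limit of the rule changed the level of these shares, and DKO stayed above SKO for H3K9me3 in each class below. In sgControl, 27118 bins (83.9%) had no H3K9me3 domain at all in either library, and of these 9.67% ± 0.269 gained H3K9me3 in DKO and 3.91% ± 0.227 in SKO (SD, n = 2). The 5210 bins partly covered by H3K9me3 in sgControl gained it in 22.3% ± 0.190 in DKO and 13.8% ± 0.176 in SKO. Bins just inside the H3K9me3 limit, covered over 40 to 50% in the higher sgControl library, were marked in 26.0% in DKO and 16.6% in SKO, and bins just outside it, covered over 50 to 60%, in 31.5% in DKO and 21.3% in SKO. For H3K27me3, bins just inside the limit kept the mark in 56.1% in DKO and 57.2% in SKO, and bins just outside it carried it in 37.9% in DKO and 39.7% in SKO.

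SETDB1, the H3K9 methyltransferase that is active outside constitutive heterochromatin, was nearly missing from these bins. A peak found in both wild-type libraries lay in 145 of them (0.449%), against 2.09% of bins with both marks, 11.6% of bins with H3K9me3 alone and 2.40% of bins with neither. Bins with a peak had H3K9me3 in 38.6% and 36.6% in DKO and 34.5% and 35.2% in SKO, and bins without one in 11.8% and 11.4% in DKO and 5.48% and 5.25% in SKO. The difference of 27.7 points had the same sign in 4 of 4 knockout libraries (p = 0.125, exact sign-flip test, the smallest possible). H3K27me3 was kept in 48.3% and 49.0% of bins with a peak in DKO and 45.5% and 46.2% in SKO, against 83.9% and 81.5% of bins without one in DKO and 84.1% and 82.8% in SKO. That difference of -35.8 points also had 1 sign in 4 of 4 libraries (p = 0.125, exact sign-flip test). Of the 56 bins that exchanged H3K27me3 for H3K9me3, 12 held a SETDB1 peak (21.4%), against 20 of the 17797 that kept H3K27me3 alone (0.112%).

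Read density inside domains separated the classes by a constant factor. Over bins marked in all 6 H3K27me3 libraries, the median density of the domains holding H3K27me3-alone bins was 0.727 to 0.732 times that of bins with both marks in DKO, 0.726 to 0.727 times in SKO and 0.727 to 0.731 times in sgControl. The ratio is taken within a library, so libraries of different depth can be set side by side. Where H3K9me3 was called on H3K27me3-alone bins, its domains held 18.4 and 14.9 reads per kb in DKO and 19.1 and 18.2 in SKO. These were 0.685 to 0.690 times the densities over bins with neither mark in DKO and 0.684 times in both SKO libraries. The H3K9me3 domains over H3K27me3-alone bins were thus thinner in reads than those over unmarked bins, in each of the 4 knockout libraries. Domains over bins with both marks in sgControl held 22.4 and 18.1 reads per kb in DKO and 22.2 and 21.1 in SKO. Those over bins with neither mark held 26.7 and 21.7 in DKO and 27.9 and 26.7 in SKO. A density below that of unmarked bins was thus not particular to newly marked bins, and a domain can reach beyond the bin.

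Bins that lost H3K27me3 differed from those that kept it in their surroundings. The control domain around a bin that lost H3K27me3 with no H3K9me3 had a median width of 42.4 kb and the bin lay a median of 1 bin from the rim, against 111 kb and 6 bins where H3K27me3 was kept alone. Gene midpoints numbered 7.88 per Mb in the lost bins and 1.89 per Mb in the kept bins, with 2.72 per Mb over all H3K27me3-alone bins and 6.66 per Mb over the autosomes. Bins that gained H3K9me3 with H3K27me3 kept in both knockouts lay in control domains with a median width of 427 kb, and those that did so in DKO but not SKO in domains of 386 kb. H3K27me3 read density in the sgControl domains, given as a description, was 48.4 and 45.8 reads per kb for bins that gained H3K9me3 in both knockouts, 47.2 and 45.3 in those of DKO but not SKO, and 37.0 and 35.6 where H3K27me3 was kept alone.

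The 32328 bins formed 8763 runs with a median length of 20 kb, and 34.9% of bins sat in runs of 100 kb or more. The longest run spanned 1940 kb at chr16:5380001-7320000 (hg38) inside RBFOX1, which encodes a neuronal splicing regulator, and the next, of 1050 kb at chr16:7330001-8380000, started inside the same gene. The run of rank 3 spanned 870 kb at chr14:32860001-33730000 and overlapped most of NPAS3, a neuronal transcription factor gene at chr14:32934785-33804173. Over the longest run, H3K9me3 covered 24.6% and 25.6% in DKO and 2.47% and 0% in SKO, while H3K27me3 covered 99.3% and 99.4% in DKO and 99.3% and 98.2% in SKO. The DKO libraries covered similar shares of this run with H3K9me3, but often in different bins. The bin starting at 5.6 Mb had 100% in DKO library 1 and 0% in library 2, and that at 5.63 Mb 0% and 100%. Over the run at NPAS3, H3K9me3 covered 1.29% and 2.25% in DKO and 0% in both SKO libraries. The longest stretch that kept H3K27me3 alone in every knockout library lay in that gene as well, over 330 kb at chr14:33100001-33430000. The longest stretch that lost H3K27me3 with both marks gone was 110 kb without a protein-coding gene at chr12:4080001-4190000, and the next, of 100 kb at chr12:2960001-3060000, held TEAD4, a transcription factor gene of the Hippo pathway. The longest stretch with H3K9me3 in DKO but not SKO beside kept H3K27me3 spanned 90 kb at chr5:2390001-2480000, and the next, of 60 kb, held KCNA5.

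**Figure D5:**
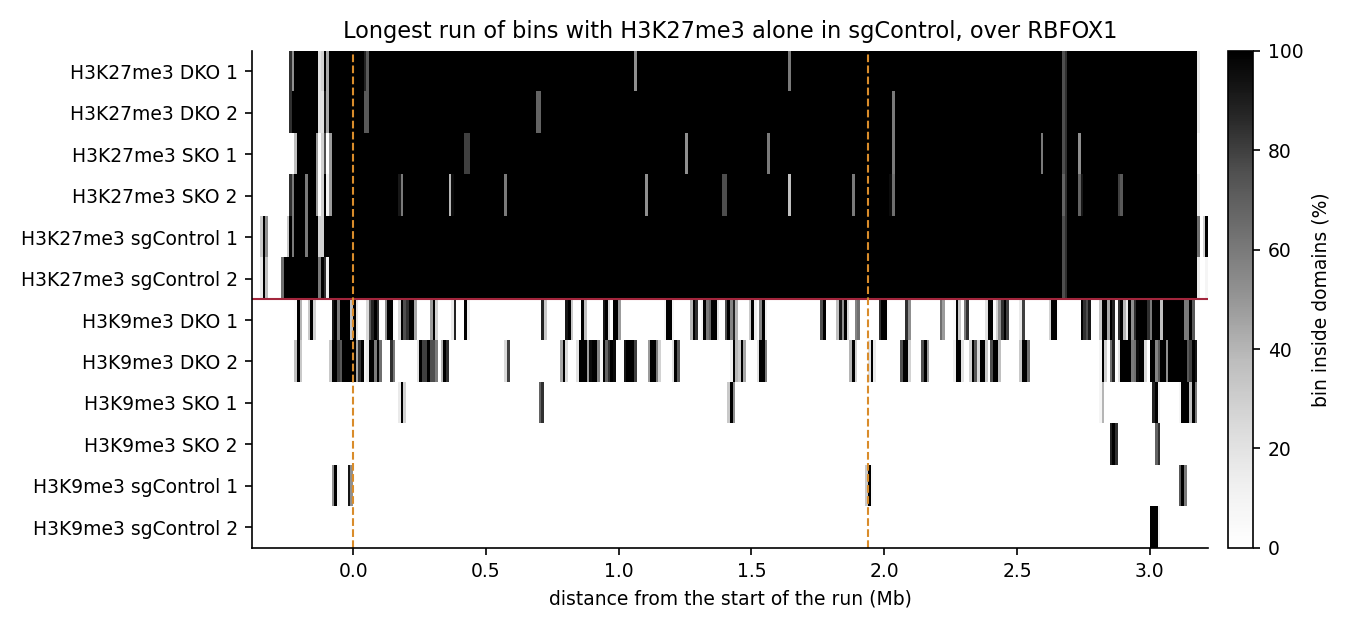
Percentage of each 10 kb bin inside domains (grey scale) in the 12 libraries, across the longest run of H3K27me3-alone bins over RBFOX1 and its flanks; the horizontal axis is distance in Mb from the start of the run, dashed lines mark the run's ends and the red line separates the marks. H3K27me3 fills the run in all genotypes, while H3K9me3 appears as separate patches that cover 24.6% and 25.6% of it in DKO and 2.47% and 0% in SKO. The patches often lie in different bins in the 2 DKO libraries.

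Of 19126 protein-coding autosomal genes, 829 (4.33%) had at least 50% of their body in H3K27me3-alone bins. For genes, the percentage of the body inside domains was taken per library, and a call required that genotypes not overlap and that the nearest libraries differ by at least 25 points. Against sgControl, H3K27me3 was lost from 250 of these genes in DKO (30.2%, against 3.10% of all genes) and from 258 in SKO (31.1%, against 3.23%), shares that the rule shapes. H3K9me3 was gained on 72 in DKO (8.69%, against 3.73% of all genes) and on 30 in SKO (3.62%, against 4.09%). Between the knockouts, which the rule did not use, H3K9me3 was higher in DKO than in SKO on 42 genes (5.07%, against 1.43% of all genes) and lower on 5 (0.603%, against 1.38%). H3K27me3 was higher in DKO than in SKO on 15 genes (1.81%, against 0.716%) and lower on 14 (1.69%, against 0.382%). The median covered share over the 829 genes was 78.8% for H3K27me3 and 0% for H3K9me3 in both knockouts.

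Genes that took H3K9me3 in place of H3K27me3 were few. No gene had at least 75% H3K9me3 with at most 25% H3K27me3 in all 4 knockout libraries with the domains as deposited. RSPO4, which encodes a secreted activator of Wnt signalling, came nearest. It had H3K9me3 over 94.6% and 100% of its body in DKO and 100% in both SKO libraries, against 0% in sgControl, and H3K27me3 over 29.0% and 21.9% in DKO and 31.0% and 27.4% in SKO, against 85.4% and 81.8% in sgControl. When only the higher-scoring 50% of domains were used, and likewise at equal covered length, its mean over the 4 knockout libraries was 0% for H3K27me3 and 98.7% for H3K9me3, so RSPO4 then met both limits. PLA2G2D, a secreted phospholipase gene, had no H3K27me3 in any knockout library, against 100% in sgControl, and H3K9me3 over 100% and 36.0% in DKO and 100% and 25.5% in SKO, against 0% in sgControl. C19orf81 had H3K9me3 over 74.6% in both DKO libraries and 40.6% and 74.6% in SKO, against 0% in sgControl, with H3K27me3 at 0% in the knockouts and 74.6% in both sgControl libraries. Its mean H3K9me3 share over the knockouts was 66.1%, but 18.6% when only the higher-scoring 50% of domains were used. CHGB, which encodes a secretory granule protein, had H3K9me3 over 59.5% and 44.0% in DKO and 100% and 65.3% in SKO, against 0% in sgControl. Its H3K27me3 was at 0% in DKO and over 20.9% and 9.33% in SKO, against no more than 38.2% and 32.4% in sgControl. GRTP1 had H3K27me3 at 0% in the knockouts, against 66.4% in both sgControl libraries, and H3K9me3 over 56.02% and 42.01% in DKO and 42.01% and 48.02% in SKO, against 34.01% and 24.01% in sgControl, so it carried H3K9me3 before. The knockout libraries stood clear of sgControl for H3K9me3 in these 5 genes, but not in AZGP1 on chromosome 7, at 0% and 100% in DKO, 91.1% and 65.3% in SKO and 13.7% and 0% in sgControl.

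Genes that ended with neither mark were more frequent. Of the 829, 107 had 0% of both marks in all 4 knockout libraries. The share of all genes in this state is not given here, but 10115 of 19126 held neither mark in any of the 12 libraries. The longest was TEAD4, at 0% H3K27me3 in the knockouts, against 93.3% and 90.2% in sgControl. SYT7, a calcium sensor of vesicle release, fell to 0% H3K27me3 in the knockouts, against 62.1% and 62.7% in sgControl. KNDC1, active in neurons, was at 0%, against 83.1% in both sgControl libraries, and SHANK1, a postsynaptic scaffold gene whose end overlaps C19orf81, at 0%, against 52.9% and 64.4%. PLEKHA1 was at 0%, against 54.9% and 57.3%, and DUSP22, a phosphatase gene, at 0%, against 53.3% and 69.6%. H3K9me3 was 0% in all 6 libraries on each of these genes.

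Both marks over at least 75% of the body in all 4 knockout libraries were found on 7 of the 829 genes. The share of all genes in this state is not given here. PCK1, the gluconeogenic enzyme gene, had H3K27me3 over 100% in all 6 libraries and H3K9me3 over 100% in the 4 knockout libraries, against 0% in sgControl. With the upper 50% of domains by score, its mean H3K9me3 share over the knockout libraries was 75%. CLPSL1 had both marks over 100% in the knockouts, against 77.1% and 100% for H3K27me3 and 0% for H3K9me3 in sgControl. BPIFB2 and BPIFB4, neighbouring genes of lipid-binding secreted proteins, had H3K27me3 at 100% in all 6 libraries. BPIFB2 had H3K9me3 over 100% in both DKO libraries and 83.1% and 100% in SKO, against 18.1% and 0% in sgControl. NUAK1, a kinase gene, had 92.9% and 95.0% in DKO and 96.1% and 78.1% in SKO, against 46.4% and 29.4% in sgControl, so this gene carried some H3K9me3 before.

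H3K27me3 over 100% with H3K9me3 at 0% in all 4 knockout libraries was found on 84 of the 829 genes, and the share of all genes is not given here. POSTN, TMPRSS11E, an epithelial protease gene, and PNLIPRP3, a pancreatic lipase relative, had this state in all 6 libraries of each mark. PAWR, an apoptosis gene and the longest, had H3K9me3 at 0% in the knockouts, against 20.8% and 39.7% in sgControl. CCDC172 and RBM46 had none in the knockouts, against 37.4% and 21.9% in 1 sgControl library each.

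Between the knockouts, H3K9me3 rose on several genes that kept H3K27me3. KLK12, a kallikrein protease gene, had H3K9me3 over 89.8% and 100% in DKO and 0% in SKO and in sgControl, with H3K27me3 at 100% throughout. KCNA5 and HBD, the delta globin gene, each had 100% in both DKO libraries and 0% in both SKO and both sgControl libraries, again with H3K27me3 at 100%. The olfactory receptor gene OR6C75 had 79.7% in both DKO libraries and 0% in SKO and sgControl, and OR1I1 had 61.2% and 68.7% in DKO and 0% in SKO and sgControl. Receptor genes of this family have near-identical relatives, so their single values are uncertain. In the other direction, OR2A25 on chromosome 7 had 0% in DKO, 100% in both SKO libraries and 0% in sgControl, and 3 of the 5 genes lower in DKO lay on chromosome 7. CNTNAP2, a large neuronal adhesion gene on chromosome 7, had 5.95% and 6.29% in DKO and 22.02% and 18.4% in SKO, against 24.8% and 25.2% in sgControl, a gap below the 25 points a call needs. With the upper 50% of domains by score the calls on KLK12, OR6C75 and OR1I1 were lost, with mean differences of 50, 0 and 30.6 points of the body. With equal covered length those on KLK12 and OR6C75 were lost, at 50 and 39.9 points, and that on OR1I1 held. KCNA5 and HBD were not recomputed under these settings.

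H3K27me3 itself differed between the knockouts on single genes. TMEM179 had 100% and 91.8% in DKO and 0% in SKO, against 100% in sgControl. ARHGEF16, an exchange factor gene, had 61.7% and 64.7% in DKO and 0% in SKO, against 94.9% and 73.8% in sgControl, and LHX5, a homeobox gene of the developing brain, 55.6% in both DKO libraries and 0% in SKO, against 100% in sgControl. LECT2, a liver chemokine gene, went the other way with 0% in DKO and 76.5% and 86.4% in SKO, against 96.3% in sgControl. CNPY1 on chromosome 7 had 0% in DKO and 55.6% in SKO, against 45.1% in sgControl. VSX1, a retinal homeobox gene, had 31.3% and 0% in DKO and 81.0% and 88.1% in SKO, against 100% in sgControl. The libraries of a genotype lay closer together than the genotypes did on all 6. The calls on ARHGEF16, LECT2, CNPY1 and VSX1 rest on low-scoring domains, since the difference was 0% for each once lists were cut to their upper 50% by score or to equal covered length, while those on TMEM179 and LHX5 held under both.

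Neuronal receptor and adhesion genes were the best represented of the lists. Of 42 GABA and glutamate receptor genes, 11 (26.2%) lay in H3K27me3-alone bins, and of 79 neuronal adhesion and guidance genes 21 (26.6%), against 4.33% of all genes. Bins with both marks in sgControl held 6 of these receptor genes, 27 of the adhesion genes and 1434 of all 19126 genes. A high share of these lists was thus not particular to H3K27me3-alone bins. The median H3K27me3 share of the receptor genes was 83.4% in DKO, 93.2% in SKO and 97.3% in sgControl, and that of the adhesion genes 92.1% in DKO, 94.7% in SKO and 98.02% in sgControl. H3K9me3 was higher in DKO than in SKO on 2 of the 11 and on 3 of the 21, beside 42 of all 829 genes (5.07%). GRIN2A, an NMDA receptor subunit gene, had H3K9me3 over 67.1% and 76.0% in DKO and 13.8% and 16.9% in SKO, against 4.66% and 17.7% in sgControl. NTM and OPCML, neighbouring genes of GPI-anchored adhesion proteins, both had more in DKO. NTM had 46.9% and 44.3% in DKO and 6.46% and 5.55% in SKO, against 0% and 5.88% in sgControl. OPCML had 45.6% and 42.2% in DKO and 6.66% and 7.09% in SKO, against 3.65% and 4.80% in sgControl. EPHB1, an ephrin receptor gene, had 63.1% and 75.7% in DKO and 22.5% and 7.57% in SKO, against 41.1% and 12.7% in sgControl, so it carried H3K9me3 before. RBFOX1 itself had 25.4% and 27.1% in DKO and 1.94% and 0% in SKO, which misses the 25 points. DKO and SKO libraries did not overlap on any of these 5 genes, and H3K27me3 covered at least 90.9% of each in all libraries.

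In the lists of regulators and signals, some members kept H3K27me3 and some lost it, beside 30.2% lost in DKO and 31.1% in SKO over all 829 genes. Of 81 SOX, FOX, TBX, GATA, ZIC and bHLH regulators, 14 lay in H3K27me3-alone bins, and H3K27me3 was lost from 4 of them in DKO and 5 in SKO, with medians of 71.8% in DKO, 57.0% in SKO and 100% in sgControl. SOX2, SOX14 and ATOH1, regulators of neural fate, kept 100% in all libraries, while HAND1 had 0% in all 4 knockout libraries. Of 92 homeobox genes outside the HOX clusters, 11 were in such bins, and 5 lost H3K27me3 in each knockout, with medians of 63.0% in DKO, 77.1% in SKO and 100% in sgControl. ISL1, a motor neuron and heart regulator, kept 100% throughout, and PAX7, a muscle stem cell regulator, kept 100% and had H3K9me3 over 65.1% and 35.3% in DKO and 13.6% and 23.05% in SKO. The HOX clusters gave 1 of 39 genes, HOXC13, which lost no H3K27me3 by the call. Of 50 WNT, BMP, FGF and hedgehog ligand genes, 6 were in such bins, and FGF9 had H3K9me3 over 69.8% and 100% in DKO and 25.4% and 44.6% in SKO, against 0% in sgControl. Of 68 potassium channel genes, 11 were in such bins, and 5 lost H3K27me3 in each knockout.

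Many keratin genes and some muscle and heart genes of H3K27me3-alone bins lost H3K27me3 in the knockouts, beside 30.2% in DKO and 31.1% in SKO over all 829 genes. Of 149 keratin and keratin-associated genes, 28 lay in H3K27me3-alone bins, and 20 lost H3K27me3 in DKO and 16 in SKO, with medians of 0% in DKO, 8.57% in SKO and 100% in sgControl. H3K9me3 was gained on 1 of the 28 in each knockout. KRT14, a basal epidermal keratin gene, had 0% in the 4 knockout libraries, against 100% in sgControl, while KRT6C kept 100% in all 6. Loss went by locus in part, so genes of a cluster are not separate cases. On chromosome 12, KRT6B, KRT6C, KRT71 and KRT74 kept at least 87.06% in each knockout library, and KRT75, KRT82 and KRT84 had 32.5% to 100%. The genes of this list on chromosome 17 had 0% in both DKO libraries, except KRT38. In SKO, KRT38 and KRTAP9-1 kept 100%. Keratin-associated genes have near-identical neighbours and single values are uncertain. Of 39 muscle and heart genes, 7 were in such bins, and 4 lost H3K27me3 in DKO and 5 in SKO. MYH7, a slow and cardiac myosin gene, had 0% in both DKO libraries and 0% and 17.7% in SKO, against 79.1% and 82.5% in sgControl. MYBPC2, a fast muscle myosin-binding protein gene, had 0% in the 4 knockout libraries, against 100% and 97.9% in sgControl. MYH8 kept 100% in all 6 libraries, and TNNT2 kept 73.9% to 95.3% in the knockouts. MYH6 and MYH7 are neighbours on chromosome 14 and not separate cases.

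Of the other lists, the olfactory receptors and solute carriers gave the most genes by number, but both lists are long. As shares these were 12.3% and 5.41%, against 4.33% of all genes. Bins with both marks in sgControl held 144 of the olfactory receptors, 25 of the solute carriers and 1434 of all 19126 genes. Olfactory receptors gave 48 of 391 genes, with H3K27me3 lost from 4 in DKO and 5 in SKO and H3K9me3 higher in DKO than SKO on 5 and lower on 2. Solute carriers gave 18 of 333, with H3K27me3 lost from 5 in each knockout, H3K9me3 gained on 4 in DKO and on 0 in SKO, and H3K9me3 higher in DKO than SKO on 2. Over all 829 genes, H3K27me3 was lost from 30.2% in DKO and 31.1% in SKO, and H3K9me3 was gained on 8.69% in DKO and 3.62% in SKO. H3K9me3 was higher in DKO than in SKO on 5.07% of the 829 and lower on 0.603%. Cadherins and non-clustered protocadherins gave 9 of 44 (20.5%) and erythroid and megakaryocyte genes 5 of 28 (17.9%). Matrix genes gave 5 of 67 (7.46%), adhesion GPCRs 2 of 26 (7.69%) and hepatic and metabolic genes 2 of 54 (3.70%). Lymphoid genes gave 2 of 47 (4.26%) and interferon-stimulated genes 1 of 50 (2%). Zinc finger genes gave 5 of 537 (0.931%). No gene came from the 53 clustered protocadherins, the 31 Polycomb and H3K27 demethylase genes, the 28 H3K9 methylation genes or the 27 housekeeping genes.

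Promoters in H3K27me3-alone bins were poorer in CG than most. RefSeq promoters matched 15101 of the 19126 genes, and 690 had their start in such a bin. Their median ratio of observed to expected CG dinucleotides was 0.469, against 0.767 over all matched promoters, and 42.6% reached 0.6, against 66.3%. Promoters in bins with both marks in sgControl had a median of 0.443 (n = 1115) and those in bins with neither 0.803 (n = 11428). By course, the median ratio was 0.506 where H3K27me3 was lost with no H3K9me3 (n = 130), 0.491 where it was kept alone (n = 262) and 0.314 where H3K9me3 was gained in DKO but not SKO (n = 25). CG-rich promoters, at 0.6 or above, were in bins that kept H3K27me3 in 67.7% and 66.3% of cases in DKO and 65.0% and 63.6% in SKO, and CG-poor ones in 71.7% and 67.2% in DKO and 69.7% and 72.0% in SKO. The sequences printed above span that range, with ratios of 0.644 in HAND1, 0.833 in FAM24B, 0.667 in SOX2, 0.501 in KCNA5, 0.232 in CLPSL1 and 0.264 in POSTN.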

How the data were processed

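H3K27me3 and H3K9me3 were measured in 12 libraries in all (2 per mark in DKO, SKO and sgControl cells) and SETDB1 in 2 wild-type libraries. Per the labels' protocols, Drosophila S2 chromatin was added as a spike-in (ChIP-Rx). The submitters' processing notes name the builds hg38 and dm6 and the tools FastQC 0.12.1, Trim Galore 0.6.10, SICER and deepTools 3.5.6. The aligner, the read filters, the use of the inputs and the SETDB1 peak caller are steps not given in the sources used here. The 4 input samples were not analysed here.

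The deposited domain lists come from epic2, a SICER-type caller for broad domains, run on each library, per the labels and files, and give each domain a read count and a score, neither normalised for depth or spike-in as far as the file headers say. The deposited SETDB1 lists give narrow peaks with a score, a fold (ratio) and −log10 p and q values, as the authors' caller wrote them. Scores were used here only to rank features within a list, and folds and −log10 values as deposited were not used in a test.

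Coverage of 10 kb bins and of gene bodies by domains was computed with Python 3.11.15, numpy 2.4.6, pandas 2.3.3 and matplotlib 3.10.9 from gene positions of RefSeq GRCh38.p14. A bin was marked at 50% coverage, and called lost or gained where both libraries of one genotype were marked and both of the other were not. A SETDB1 peak counted where peaks of both libraries overlapped. Genes were those with at least 50% of the body in the bins, and a gene call needed 25 points between the nearest libraries. Genes of at least 5 kb were named by a rule: the 6 with most H3K9me3 minus H3K27me3 in the knockouts, the 6 with least of both marks, the 6 longest with both marks at 75% or with H3K27me3 at 100% alone in each knockout library, and the 3 largest DKO minus SKO differences per mark and direction. The examples from the gene lists, RBFOX1, NPAS3, LILRB4 and the 6 promoters were picked after their values were seen. Group differences were tested by exact permutation over libraries. The bin calls were tested on simulated domains with known courses. Replicate numbers come from the titles, and nothing says that libraries came from separate cultures, so p-values measure a spread that may be technical. The bins, gene lists and comparisons were chosen with earlier results of these data known. Alternatives were other coverage limits, bin sizes, score limits, equal covered length, other gene limits, chromosome 7 left out and each library left out.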

Additional observations from a re-analysis of the deposited data

Results flagged for a closer look

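The difference in H3K9me3 between DKO and SKO had opposite signs in different control classes, in every pairing of libraries. It was 6.20 points in H3K27me3-alone bins, with 11.7% ± 0.256 in DKO and 5.50% ± 0.162 in SKO, and -1.23 points in bins with neither mark, with 6.41% ± 0.244 in DKO and 7.64% ± 0.171 in SKO (SD, n = 2). The difference between these contrasts was 7.43 points (p = 0.333, exact permutation test, the smallest that 2 against 2 libraries allow). It and the contrast in bins with neither mark were not recomputed under other settings.

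Chromosome 7 ran against the other 21 autosomes. The H3K9me3 difference in its H3K27me3-alone bins was -12.9 points, with 4.96% ± 0.130 in DKO and 17.9% ± 0.390 in SKO (SD, n = 2), while the DKO libraries were above the SKO libraries on each of the others. The difference between chromosome 7 and the others was not tested.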

How the results depend on the processing

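With the upper 50% of domains by score, H3K27me3 marked 80.4% in DKO and 80.8% in SKO of the bins then chosen, H3K9me3 9.67% in DKO and 4.28% in SKO, and 10 genes had less H3K9me3 in DKO than in SKO. With equal covered length per mark, H3K27me3 marked 74.1% in both knockouts and its DKO minus SKO difference reversed to 0.0330 points. H3K9me3 then marked 16.8% in DKO and 10.8% in SKO, and the shares of courses in both knockouts were 3.61% (both marks), 13.6% (neither) and 0.440% (exchanged), with 0.960% losing H3K9me3 in DKO against SKO. By knockout, both marks were found on 9.91% in DKO and 5.46% in SKO, neither on 18.6% in DKO and 18.5% in SKO, and H3K9me3 alone on 0.770% in DKO and 0.955% in SKO. Genes in the bins were then 1285, with H3K27me3 lost from 422 in DKO and 449 in SKO, H3K9me3 gained on 221 in DKO and 129 in SKO, and H3K9me3 higher in DKO than SKO on 71 and lower on 20. At a limit of 25%, H3K27me3 marked 84.9% in SKO and H3K9me3 12.02% in DKO. At 75%, H3K27me3 marked 79.7% in DKO and 80.2% in SKO, H3K9me3 11.99% in DKO and 6.01% in SKO, and 0.114% exchanged the marks. In bins of 5 kb, H3K9me3 marked 12.2% in DKO and 5.86% in SKO. In bins of 20 kb it marked 11.4% in DKO and 5.16% in SKO, and 0.104% exchanged the marks. Without chromosome 7, H3K9me3 marked 5.07% in SKO, 0.243% of bins lost it in DKO against SKO, and 2 genes did. At 10 points, genes higher and lower in DKO than SKO were 39 and 27 for H3K27me3 and 87 were higher for H3K9me3. At 50 points they were 6 and 6 for H3K27me3 and 11 for H3K9me3, which was gained against sgControl on 34 in DKO and 19 in SKO. With 90% of the body in the bins, 441 genes remained, with H3K27me3 lost from 138 in DKO and 152 in SKO and from 6 in DKO against SKO, and H3K9me3 gained on 42 in DKO and higher on 21 in DKO than SKO.

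Leaving out each library in turn gave 79.4 to 84.3% (DKO) and 80.2 to 85.0% (SKO) for H3K27me3, and 11.1 to 16.8% (DKO) and 5.30 to 9.33% (SKO) for H3K9me3. The H3K27me3 difference between DKO and SKO ran from -1.93 to 0.532 points and reversed to 0.532 without DKO library 2. The H3K9me3 difference ran from 5.76 to 7.46. By knockout, both marks ran from 5.85 to 10.997% in DKO and 2.30 to 4.95% in SKO, neither mark from 9.95 to 17.6% in DKO, and H3K9me3 alone from 0.359 to 0.619% in DKO and 0.377 to 0.650% in SKO, with the high values where a knockout library of that mark or an sgControl H3K9me3 library was left out. Both marks in both knockouts ran from 1.44 to 3.37%, exchange from 0.173 to 0.262%, H3K27me3 higher in DKO than SKO from 1.13 to 3.93% and lower from 1.38 to 4.89%, and H3K9me3 higher from 2.88 to 7.07% and lower from 0.445 to 1.29%. Gene counts ran from 15 to 32 and 14 to 34 for H3K27me3 higher and lower, 42 to 84 and 5 to 16 for H3K9me3, and 72 to 159 in DKO and 30 to 77 in SKO for H3K9me3 gained against sgControl. The other 5 differences that were recomputed kept their sign under all settings run. The DKO minus SKO differences in bins with neither mark and with both marks were not recomputed, nor was the 7.43 points between classes. For the genes named by the rule, and not those picked from the lists alone, 795 of 812 recomputed values kept their call or stayed within 1 SD. Of the others, 13 lost the call and 4 moved, all with the upper 50% of domains or equal covered length. The cause of these shifts was not tested, beyond fewer or more domains and libraries entering a call.

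With the replicate number as a block the differences were the same, -0.698 and 6.20 points, with exact p = 0.5 for each, the smallest that 2 pairs allow. Deviations of same-numbered DKO and SKO libraries correlated at 0.0221 for H3K27me3 and 0.0182 for H3K9me3 over the bins. This cannot decide whether the numbers pair the libraries, since bins are not replicates and libraries handled together can share depth. Library 2 had fewer reads in domains than library 1 for both marks in each genotype. Depth limits every value through the domain calls, and 2 libraries a group cannot reach p below 0.333.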
